A study of Mus musculus with 6 samples.

Results

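Bipolar cell genes were followed in the ganglion cell layer of the mouse retina 6 hrs after optic nerve crush. The set held 9 genes, Vsx1, Prkca, Trpm1, Pcp2, Cabp5, Gng13, Scgn, Lhx4 and Nyx, of 18194 genes to which the array annotation gave a probe set of their own. Every probe set annotated to 1 of these genes was taken, which gave 20 of the 45101 on the array. Of these, 14 had a mean intensity of at least 40 over the 6 arrays and were tested, and the other 6 lay under this limit and are given as values only.

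Male C57BL/6J mice had the optic nerve of 1 eye crushed, and the other eye was left uninjured. The crush group held 3 eyes examined 6 hrs after the crush, and the control group held the 3 uninjured contralateral eyes of the same animals. About 6000 cells of the ganglion cell layer were taken from each eye by laser capture, and their amplified RNA was hybridized to 1 array per eye. All values are linear signal intensities, and differences are on the log2 scale, crush minus control, with crush eye 1 paired with control eye 1 and so on.

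Bipolar cells carry the signal of rods and cones to amacrine and ganglion cells. Their cell bodies lie in the inner nuclear layer, outside the captured layer, and their axon terminals end in the synaptic layer beside the ganglion cells. ON bipolar cells, which include the rod bipolar cells, sense glutamate through the receptor mGluR6, whose G protein closes the cation channel Trpm1 in the dark. Cone bipolar cells of the ON and OFF kind differ in their transcription factors, calcium binding proteins and receptors. In bulk tissue of this kind, fewer transcripts per cell cannot be told apart from less bipolar cell material in the captured piece.

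The members split into genes with lower values in the crushed eyes and genes with hardly any difference, a contrast between genes that was not tested. Cabp5, Gng13 and Lhx4 were nominally lower in the crushed eyes, which here means an unadjusted p under 0.05 from limma, and Vsx1, Scgn and Nyx were lower in all 3 pairs without passing that limit. The nominal limit divides these genes only loosely. Lhx4 did not pass it without the pairing, and neither Lhx4 nor Cabp5 passed it in the methods' t-test. Scgn passed it after quantile normalization. Prkca, Pcp2 and Trpm1 had log2 differences between -0.09 and -0.02 at their brightest probe sets. Genes known from rod bipolar or ON bipolar cells stood on both sides, with Cabp5, Gng13 and Nyx among the lower ones. Of all probe sets 2546 passed an unadjusted p under 0.05 and 0 passed an adjusted one in limma, while limma with a trended and robust prior passed 1, which was no member, and the methods' t-test passed 0. The adjusted p from limma, taken over all 33169 tested probe sets, lay between 0.642 and 0.992 for the members.

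Nyx encodes nyctalopin, a leucine-rich repeat protein on the dendrite tips of ON bipolar cells that is needed to place Trpm1 there. Its probe set 1446344_at had 579.8, 333.1 and 591.6 in the crushed eyes 1 to 3, and 652.7, 623.9 and 613.0 in the control eyes. Every crushed eye lay below every control eye, but eyes 1 and 3 did so by little and eye 2 by much. The mean was 501.5 ± 145.9 after crush and 629.9 ± 20.5 in controls (SD, n = 3 each), a log2 difference of -0.38 ± 0.21 (SE, adjusted p = 0.664 from limma). Without pair 2 the difference was -0.11.

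Gng13 encodes a G protein gamma subunit that works beside Gnb3 in ON bipolar cells and is also known from taste cells. Probe set 1419414_at had 1821, 2656 and 2304 in the crushed eyes and 2661, 3448 and 3345 in the control eyes. The groups did not overlap, although crush eye 2 came close to control eye 1, and the 3 pair differences of -0.55, -0.38 and -0.54 were the most even of the members with a nominal difference. The mean was 2260 ± 419 after crush and 3151 ± 428 in controls (SD, n = 3 each). The log2 difference was -0.49 ± 0.14 (SE, 95% interval -0.83 to -0.14, adjusted p = 0.642 from limma). It lost its nominal call without pair 1, at -0.46, and without pair 3, at -0.46, and kept it without pair 2, at -0.54. In fits without pairing it also lost it without crush eye 1, at -0.34, crush eye 3, at -0.51, control eye 2, at -0.42, and control eye 3, at -0.44.

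The dimmer probe set of Gng13, 1447282_at, had 76.1, 27.6 and 90.1 in the crushed eyes and 87.9, 112.6 and 122.0 in the control eyes. Crush eye 3 lay above control eye 1 here, so the groups overlapped, and crush eye 2 was far below all others. The log2 difference of -0.89 ± 0.38 (SE, adjusted p = 0.642 from limma) was -0.32 without pair 2. Without pair 1 it was -1.23 and became nominally significant.

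Trpm1, the channel at the end of the mGluR6 cascade, was near background in most of its probe sets. The single tested one, 1418935_at, had 157.1, 74.2 and 169.3 in the crushed eyes and 171.7, 101.3 and 118.0 in the control eyes. The pairs went opposite ways, with -0.13, -0.45 and 0.52, and the mean log2 difference was -0.02 ± 0.22 (SE, 95% interval -0.58 to 0.54). Probe set 1440241_at stayed between 23.5 and 45.2 on all 6 arrays, and 1437445_at and 1437531_at lay under an intensity of 16 everywhere.

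Pcp2 encodes a small protein that binds the alpha subunit of the G protein of ON bipolar cells and is best known from cerebellar Purkinje cells. Its bright probe set 1419085_at had 1524, 1677 and 1949 in the crushed eyes and 1630, 1661 and 2228 in the control eyes. The values overlapped broadly, and the log2 difference was -0.09 ± 0.14 (SE, 95% interval -0.44 to 0.26). Probe set 1419084_a_at had pair differences of -0.20, 0.48 and -0.35, which averaged -0.02, and 1424944_at lay under 16 on all arrays.

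Prkca encodes protein kinase C alpha, the standard marker of rod bipolar cells. Probe set 1437393_at had 5823, 6418 and 5473 in the crushed eyes and 6162, 6650 and 5514 in the control eyes. Each crushed eye was slightly below its own control, by -0.08, -0.05 and -0.01, while the eyes of different animals differed by more. The mean was 5904 ± 478 after crush and 6109 ± 570 in controls (SD, n = 3 each), and the log2 difference of -0.05 ± 0.13 had a 95% interval of -0.39 to 0.29. Probe set 1450945_at, with pair differences of 0.15, -0.42 and 0.30, was the single tested probe set of the members with a positive mean difference, 0.01, and 1427562_a_at lay under 16 on all arrays.

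Cabp5 encodes a calcium binding protein of rod bipolar cells and of several cone bipolar types. Probe set 1451826_at had 1374, 1880 and 1955 in the crushed eyes and 2572, 3596 and 2171 in the control eyes. Every crushed eye lay below every control eye, with large differences in pairs 1 and 2, -0.91 and -0.94, and a small one in pair 3, -0.15. The mean was 1736 ± 316 after crush and 2780 ± 735 in controls (SD, n = 3 each). The log2 difference was -0.66 ± 0.21 (SE, 95% interval -1.19 to -0.14, adjusted p = 0.642 from limma). The nominal call was lost without pair 1, at -0.54, and without pair 2, at -0.53, and without pair 3 the difference was -0.92. In the methods' t-test the call was lost as well. In fits without pairing it was also lost without crush eye 1, at -0.50, and without control eye 2, at -0.46.

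The dim second probe set of Cabp5, 1421780_a_at, ran the same way in each pair. It had 39.4, 56.1 and 38.6 in the crushed eyes and 56.5, 90.5 and 46.9 in the control eyes, with overlap between the groups because crush eye 2 exceeded control eye 3. Its log2 difference of -0.50 ± 0.15 (SE, adjusted p = 0.642 from limma) was nominally significant, but at -0.49 without pair 1 and at -0.40 without pair 2 it was not. The call was also lost in the fit without pairing and in the methods' t-test. With 1 eye left out, in fits without pairing, it was kept only without control eye 3, at -0.70. Both probe sets share the same RNA samples and do not count as separate evidence.

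Scgn encodes secretagogin, a calcium sensor with EF hands that marks several cone bipolar types. Probe set 1451534_at had 532.8, 794.2 and 511.5 in the crushed eyes and 766.8, 939.9 and 593.1 in the control eyes. Each crushed eye was below its own control, by -0.53, -0.24 and -0.21, but the groups overlapped because crush eye 2 and control eye 2 were the brightest of their groups. The log2 difference was -0.33 ± 0.15 (SE, 95% interval -0.70 to 0.04, adjusted p = 0.642 from limma). It became nominally significant with an intensity floor of 64, with no intensity filter and after quantile normalization, and, in a fit without pairing, without crush eye 2, at -0.53.

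Vsx1 encodes a homeodomain transcription factor needed for the late differentiation of cone bipolar types. Probe set 1450487_at had 478.2, 228.5 and 512.9 in the crushed eyes and 594.6, 758.5 and 536.7 in the control eyes. The groups did not overlap, but most of the difference came from pair 2, at -1.73, against -0.31 in pair 1 and -0.07 in pair 3. The mean was 406.6 ± 155.2 after crush and 629.9 ± 115.1 in controls (SD, n = 3 each). The log2 difference was -0.70 ± 0.35 (SE, 95% interval -1.58 to 0.17, adjusted p = 0.648 from limma) and was -0.19 without pair 2. In a fit without pairing it was -0.91 and nominally significant without crush eye 3. Probe set 1422104_at was untested and lay between 10.5 and 36.6 on all arrays.

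Lhx4 encodes a LIM homeodomain transcription factor of cone bipolar cells. Probe set 1439905_at had 136.9, 220.2 and 167.7 in the crushed eyes and 202.3, 309.2 and 199.7 in the control eyes. Each crushed eye was below its own control, by -0.56, -0.49 and -0.25, and the groups overlapped through crush eye 2. The log2 difference was -0.44 ± 0.14 (SE, 95% interval -0.80 to -0.07, adjusted p = 0.642 from limma). The nominal call was lost without pair 1, at -0.37, and without pair 2, at -0.41, and also in the fit without pairing and in the methods' t-test. With 1 eye left out, in fits without pairing, it was kept only without crush eye 2, at -0.62. The smallest difference in these fits was -0.23, without control eye 2. The dimmer probe set 1421483_at, with 98.1, 86.2 and 77.0 after crush and 73.6, 95.1 and 110.6 in controls, had pair differences of 0.42, -0.14 and -0.52 and did not share this direction in pair 1.

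**Figure D1:**
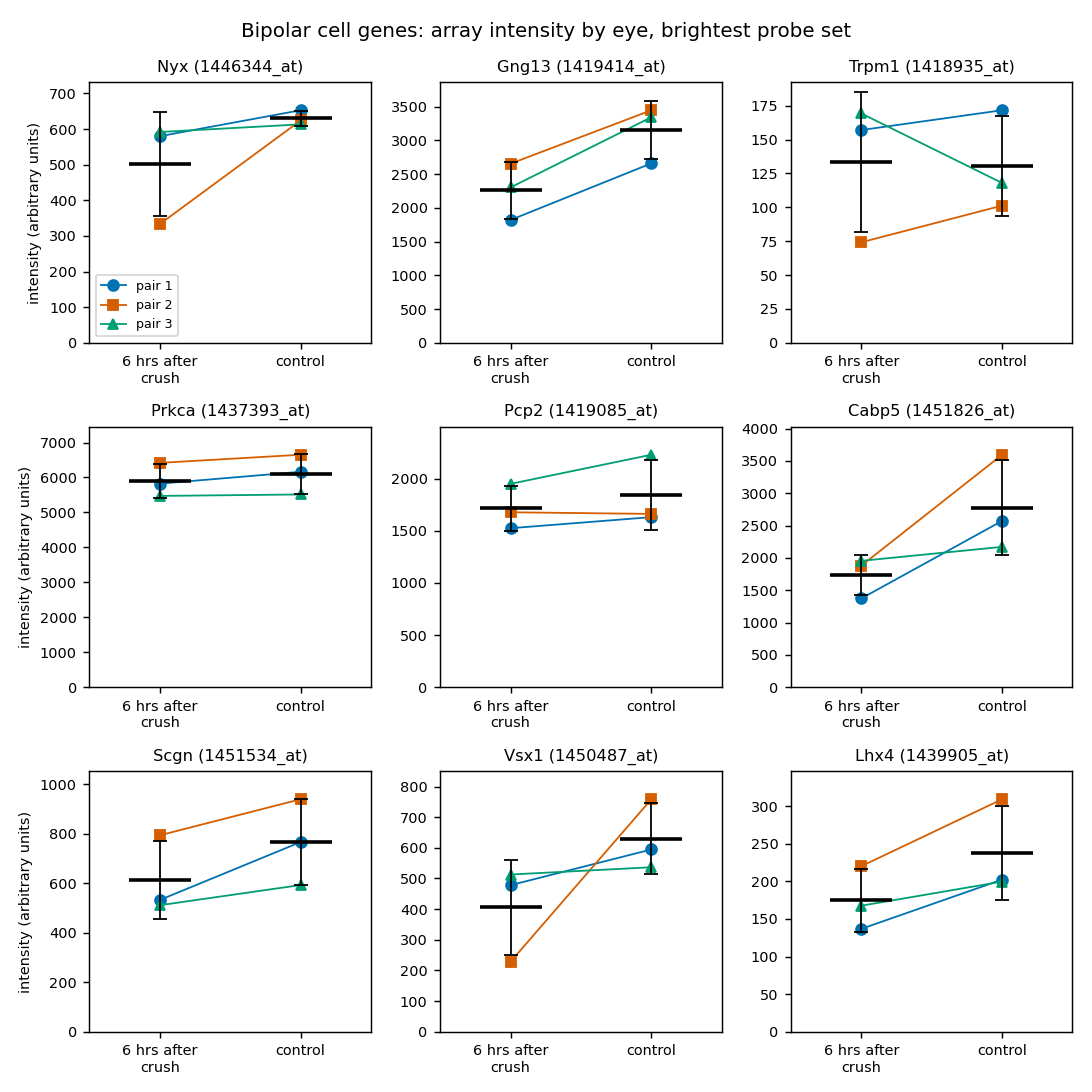
Intensity (linear, arbitrary units) of the brightest probe set of each of the 9 bipolar cell genes, with crushed eyes left and control eyes right, points for single eyes, coloured lines joining the eyes of a pair and black bars for the mean ± SD of 3 eyes. Cabp5, Gng13, Vsx1 and Nyx show no overlap between the groups, and Prkca, Pcp2 and Trpm1 overlap broadly.

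Of the 14 tested probe sets, 13 were lower after crush and 1 was higher, where 16948 of all 33169 tested probe sets were lower. Nominally lower were 4 of the 14, both of Cabp5 and the brighter ones of Gng13 and Lhx4, and 0 were nominally higher. Over all 33169 tested probe sets, 2.51% were nominally lower. The median log2 difference of the member probe sets was -0.35, against -0.01 over all tested probe sets. Without the pairing 2 of the member probe sets were nominally lower, against 2% of all tested probe sets. In the methods' t-test 1 was, the brighter one of Gng13, against 2.19% of all.

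Lower in all 3 pairs were 9 of the 14 probe sets, where 14.2% of all tested probe sets were. Every crushed eye lay below every control eye in 4, those of Nyx, Vsx1, Gng13 and Cabp5 named above, where 5.25% of all tested probe sets did. The study's limits on group means, a difference of more than 1.2 times and of more than 80 units, joined with a nominal p from limma, were met by 2, the bright probe sets of Cabp5 and Gng13, both lower, against 0.543% of all tested probe sets in that direction. With the methods' t-test, which is paired and is the study's own, in place of limma, 1 member probe set met them, that of Gng13, against 0.247% of all tested probe sets. Of all probe sets that met the limits with limma 17.4% were lower, a share that was 38.4% after quantile normalization, with 3 member probe sets against 1.35% of all, 25.6% after median scaling, with 2 against 0.935%, and 25.5% with the methods' t-test. With 1 eye left out, in fits without pairing, this share ran from 7.01% without control eye 1 to 49.6% without crush eye 3. In the same fits the percentage of all probe sets that met the limits and were lower ran from 0.124% without control eye 2, where 0 member probe sets met them, to 1.68% without crush eye 1, where 0 did too. Member probe sets met them in the other fits, 4 without crush eye 2 against 0.311% of all and 2 without crush eye 3 against 1.05%. Without control eye 1 there were 2 against 0.154%, and without control eye 3 there was 1 against 0.51%. These are descriptions of probe sets that share samples and, in part, genes, and no test of the set was made.

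**Figure D2:**
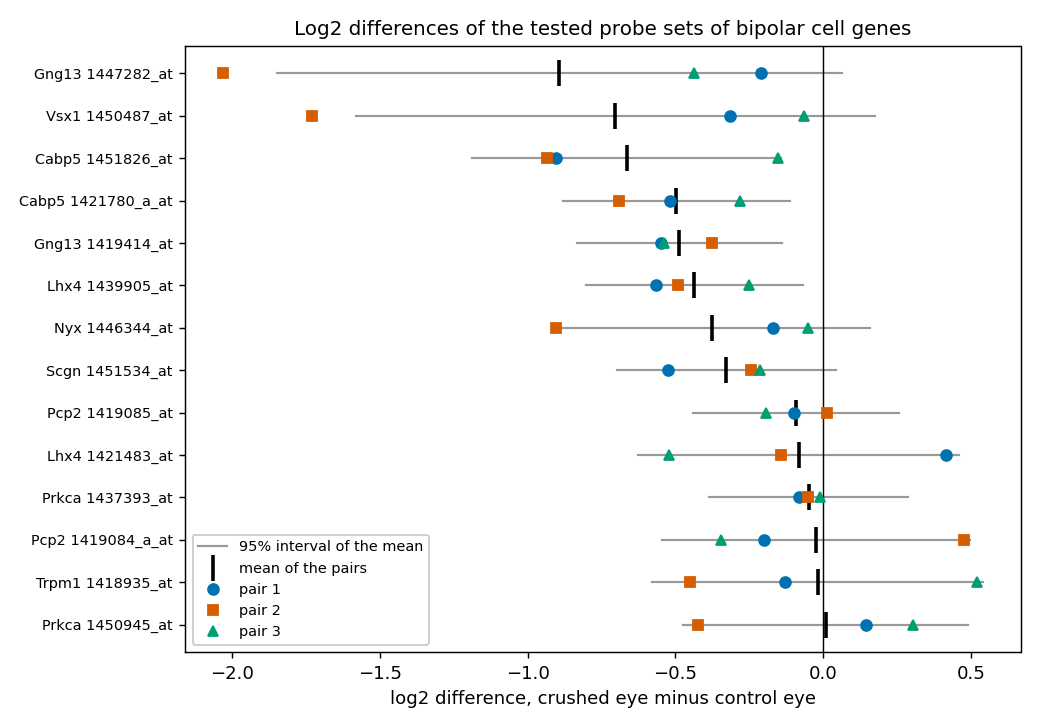
Log2 difference (crushed eye minus control eye) of the 14 tested probe sets, with coloured points for the 3 pairs, black bars for the mean and grey lines for its 95% interval. The intervals of both Cabp5 probe sets, Gng13 1419414_at and Lhx4 1439905_at lie below 0, and the pair 2 points of Gng13 1447282_at and Vsx1 lie far to the left, at -2.03 and -1.73.

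Pairs did not contribute alike. Pair 2 had the lowest median log2 difference of the 14 probe sets, -0.44, against -0.20 in pair 1 and in pair 3, and 12 of the 14 were lower in each pair. Of all 33169 tested probe sets, 15324 were lower in pair 1, 19164 in pair 2 and 13472 in pair 3, with medians of 0.02, -0.08 and 0.07. In a principal component analysis crush eye 2 lay apart from the other arrays along component 1 (44.2% of the variance) and crush eye 3 along component 2 (27.8%). On crush eye 2, 1331 probe sets lay more than 1 log2 unit below every other array, against 4 to 57 on the other arrays, and 2 of these were member probe sets, those of Vsx1 and Gng13 1447282_at. Without pair 1, 1 of the 14 member probe sets was nominally lower, against 2.7% of all tested probe sets. Without pair 2 the count was 1, against 1.54% of all, and without pair 3 it was 3, against 2.49% of all. In fits without pairing it was 4 without crush eye 2, against 1.82% of all, and 0 without control eye 2, against 0.889%. It was also 0 without crush eye 1, against 4.56%. Relative to its mean over the arrays, the brightest probe set of each member was on average highest on control eye 2, at 0.31 log2 units. It was lowest on crush eye 2, at -0.26. The part of crush eyes 2 and 3 and of control eye 2 in the remaining differences was not tested.

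Promoters of the members are shown because Cabp5, Gng13 and Lhx4 were the genes with a nominal difference, with Prkca as a member that hardly differed. The sequences are the 250 bases before the start in RefSeq (GRCm38.p6), at chr7:13397905-13398154 on the plus strand for Cabp5, chr17:25716922-25717171 on the plus strand for Gng13, chr1:155742028-155742277 on the minus strand for Lhx4 and chr11:108343889-108344138 on the minus strand for Prkca. Capitals mark TAATCC, the core bound by the homeodomain factors Otx2 and Crx, searched on both strands.
Cabp5: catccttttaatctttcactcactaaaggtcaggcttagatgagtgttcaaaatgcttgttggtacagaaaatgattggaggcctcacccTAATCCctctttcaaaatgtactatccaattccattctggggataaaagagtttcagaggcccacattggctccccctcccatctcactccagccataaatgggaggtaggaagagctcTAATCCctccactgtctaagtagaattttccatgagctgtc
Gng13: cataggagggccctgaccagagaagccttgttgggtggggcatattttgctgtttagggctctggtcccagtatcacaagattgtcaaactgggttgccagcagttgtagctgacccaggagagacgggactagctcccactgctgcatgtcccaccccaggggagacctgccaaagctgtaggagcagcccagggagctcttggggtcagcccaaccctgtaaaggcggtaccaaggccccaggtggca
Lhx4: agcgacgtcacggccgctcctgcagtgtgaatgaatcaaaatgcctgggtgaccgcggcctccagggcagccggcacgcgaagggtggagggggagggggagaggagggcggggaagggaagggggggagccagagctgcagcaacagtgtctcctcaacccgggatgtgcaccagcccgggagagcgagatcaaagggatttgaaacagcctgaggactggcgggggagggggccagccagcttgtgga
Prkca: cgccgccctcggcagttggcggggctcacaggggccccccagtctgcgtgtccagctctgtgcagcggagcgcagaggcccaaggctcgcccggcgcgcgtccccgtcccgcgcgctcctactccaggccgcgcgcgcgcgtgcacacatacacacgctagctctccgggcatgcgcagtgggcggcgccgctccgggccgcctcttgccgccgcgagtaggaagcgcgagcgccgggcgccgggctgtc

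Cabp5 held TAATCC at 2 places, 160 and 41 bases before the start, and the printed windows of Gng13, Lhx4 and Prkca held none. Of the 14 promoter windows of the 9 members, 2 held this motif, that of Cabp5 and 1 of Trpm1 at 34 bases before its start, and of all 32851 windows of the same length 6.25% did. TAATTA, a homeodomain core that shares its first bases with TAATCC, stood in 1 member window, of Pcp2, and in 4.84% of all windows. Base composition differed strongly between the printed windows, with 44% G and C in Cabp5, 58.8% in Gng13, 66% in Lhx4 and 76.8% in Prkca, around a median of 52.4% over all windows. These matches describe the letters of the windows, and binding was not measured here.

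Other genes of bipolar cells were taken from 3 lists, each gene by its brightest probe set. Of 32 listed genes 23 were tested, of which 15 were lower and 8 higher after crush, with a median log2 difference of -0.11. Of all 33169 tested probe sets 16948 were lower. Nominally lower were 5, Gabrr1, Gabrr2, Car8, Tacr3 and Sebox, and 0 were nominally higher. Over all 33169 tested probe sets, 2.51% were nominally lower, while 1713 probe sets were nominally higher. Of the 5 genes, 4 came from the list of bipolar type genes, 1 from the transcription factors and 0 from the mGluR6 cascade. Grm6, which encodes mGluR6, was not analysed here.

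Gabrr1 and Gabrr2 encode rho subunits of the ionotropic GABA receptor on bipolar cell terminals. Gabrr1 had 383.6, 459.5 and 354.0 in the crushed eyes and 649.4, 976.5 and 466.2 in the control eyes, and Gabrr2 had 349.5, 323.7 and 463.5 in the crushed eyes and 666.2, 851.8 and 485.9 in the control eyes. Every crushed eye lay below every control eye for both genes. The log2 differences were -0.75 ± 0.18 for Gabrr1 and -0.80 ± 0.27 for Gabrr2 (SE, adjusted p = 0.642 from limma for both), with the smallest pair difference in pair 3, at -0.40 and -0.07.

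Tacr3, the neurokinin 3 receptor of OFF cone bipolar types, had 812.3, 1092 and 746.2 after crush and 1077, 2059 and 826.3 in controls, a log2 difference of -0.49 ± 0.19 (SE). Car8, a carbonic anhydrase-related protein also known from Purkinje cells, had 466.6, 828.9 and 467.3 after crush and 993.2, 1534 and 500.5 in controls, a log2 difference of -0.69 ± 0.23 (SE). In both genes the groups overlapped, since control eye 3, and for Tacr3 also control eye 1, lay within the range of the crushed eyes. Sebox, a homeobox gene, had 985.4, 733.6 and 1138 after crush and 1235, 1213 and 1381 in controls, with no overlap and a log2 difference of -0.44 ± 0.16 (SE). The adjusted p from limma was 0.642 for each of these probe sets, the brightest of each gene. The other tested probe sets differed from them in size, with -0.74 and -0.19 for Tacr3, -0.42 and -0.0048 for Car8 and -0.16 for Sebox, and of these 5 the first of Tacr3 was the single one that was nominally lower.

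The list of the mGluR6 cascade holds the G protein and its regulators. Of its 6 tested genes 4 were lower and 2 higher, 0 were nominally significant, and the median was -0.06. Gnao1, the alpha subunit, had a log2 difference of -0.44, Gnb3 one of -0.14 and Gnb5 one of -0.02, and the regulators Rgs7, Rgs11 and Rgs9bp had -0.11, 0.23 and 0.36. The pair differences of Rgs9bp were -0.24, 0.23 and 1.10. Whether the signal of the listed genes came from bipolar cells alone was not tested. Of 6 tested transcription factors 3 were lower and 3 higher, with a median of -0.01. Otx2, which acts in photoreceptors and bipolar cells, had 3717, 1864 and 3960 after crush and 4289, 3428 and 3101 in controls, a log2 difference of -0.24 (adjusted p = 0.787 from limma) with crush eye 2 far below the rest.

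Of the 11 tested genes of bipolar types, 8 were lower and 3 higher, with a median of -0.26. Grik1, a kainate receptor subunit of OFF cone bipolar cells, had 391.8, 237.9 and 289.6 after crush and 246.2, 319.1 and 310.8 in controls, with a log2 difference of 0.05 (adjusted p = 0.965 from limma).

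Markers of the other cells of the retina were set beside these values. Their counts of lower genes stand against 16948 lower of all 33169 tested probe sets. Summed over the 9 members, the intensity was 12426 to 14281 on the crush arrays and 15319 to 18088 on the control arrays, with no overlap. Such a sum weighs bright genes most. Gng13 and Cabp5 had the largest differences of group means, with 2260 after crush and 3151 in controls, and 1736 and 2780. Prkca, the brightest member, had 5904 and 6109. The other members differed by less than Gng13 and Cabp5, and all but Trpm1 had a lower mean after crush. The gap between the sums thus describes mainly Gng13 and Cabp5. The sums of the 3 other bipolar lists did overlap. They were 12897 to 16335 after crush and 12980 to 16637 in controls for the mGluR6 cascade. For the transcription factors they were 10884 to 16248 and 13899 to 15255, and for the bipolar type genes 6901 to 7605 and 7417 to 10554. Amacrine cell markers summed to 30868 to 35264 after crush and 34464 to 39496 in controls, with a median log2 difference of -0.16, and 7 of 8 were lower. Muller cell markers summed to 39025 to 41466 after crush and 40748 to 45428 in controls, with a median of -0.12, and 7 of 8 were lower. Ganglion cell markers, which define the captured layer, summed to 44970 to 56354 after crush and 50053 to 51939 in controls, with a median of -0.04.

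Rods and cones also lie outside the captured layer. Rod markers summed to 55498 to 62191 after crush and 39611 to 66838 in controls, and all 9 tested were higher, with a median of 0.32 and with -0.19, 0.19 and 0.75 in pairs 1 to 3. Cone markers had a median of 0.40 and -0.26, 0.20 and 1.03 in the 3 pairs. Horizontal cell markers had a median of 0.14 over 4 genes. Under quantile normalization and under median scaling the median of each list kept its sign, with 9 of 9 members lower and 9 of 9 rod markers higher, while the median of the Muller cell markers was -0.08 and that of the mGluR6 cascade -0.02 after quantile normalization. None of the ganglion, amacrine, horizontal or rod markers was nominally significant, while Aqp4 of Muller cells was nominally lower and Opn1mw of cones nominally higher. The part of captured tissue of other layers in the values of the bipolar cell genes was not tested.

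**Figure D3:**
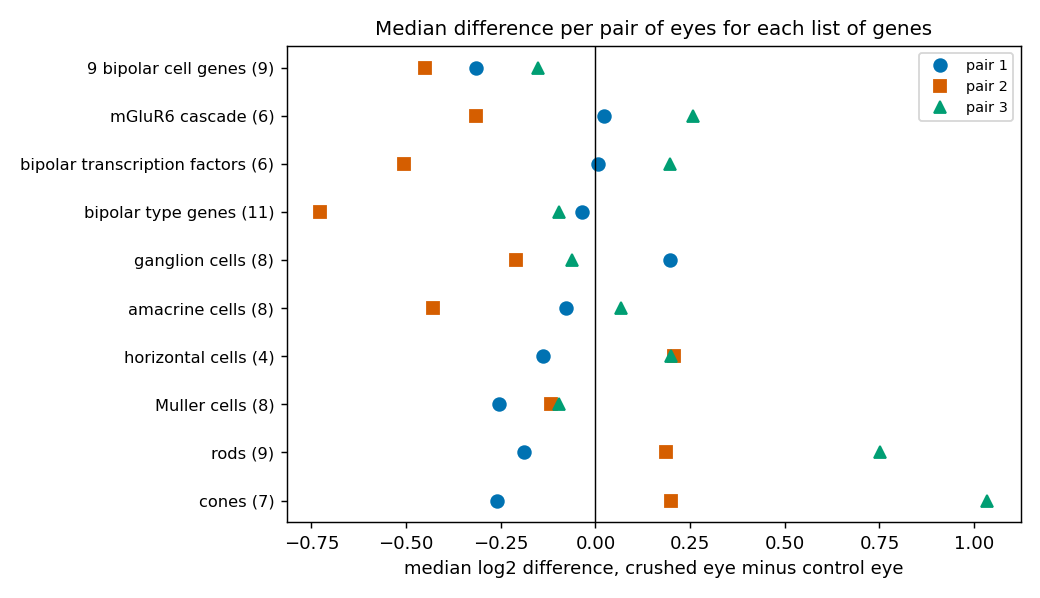
Median log2 difference (crushed eye minus control eye) of each gene list, each gene by its brightest probe set, with points for the 3 pairs. The 9 bipolar cell genes have medians of -0.31, -0.45 and -0.15 in pairs 1 to 3, and rod and cone markers spread from below 0 in pair 1 to above 0 in pair 3.

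The probe sets most like the members were sought by the root mean square difference of their centred log2 values from the mean profile of the 9 brightest member probe sets, over the 6 arrays and 16985 probe sets whose mean reached 200. The mean profile was -0.22, -0.26 and -0.04 in the crushed eyes and 0.15, 0.31 and 0.06 in the control eyes, so among the 3 pairs the eyes of pair 3 lay closest together. The nearest were those of Zdbf2, at 0.0250 log2 units, Lrrfip1 at 0.0510, Sox14 at 0.0610, Ptgis at 0.0622 and Ldhd at 0.0671, where the median over all probe sets compared was 0.266. With 6 arrays such likeness describes these libraries only.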

How the data were processed

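Gene expression was measured on 6 Affymetrix mouse arrays, 3 from crushed eyes and 3 from contralateral control eyes. The deposited values are linear intensities, which the authors computed in dChip with invariant-set normalization and the model of perfect match minus mismatch probes. A floor of 16 was applied before the log2 step. Affymetrix controls (64) were left out, and the 33169 probe sets whose mean reached 40 were fitted in limma 3.58.1 (R 4.3.3) with eye number as a block, empirical Bayes moderation and Benjamini-Hochberg adjustment. Intervals of 95% use the moderated standard error. An array has no read depth, and the number of arrays limits the precision.

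The controls are the other eyes of the same animals. Whether eye numbers mark animals is not stated, but deviations of same-numbered eyes correlated at 0.125 to 0.297, against -0.264 to 0.131 for other pairs, and the numbers were taken to pair the eyes.

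Probe sets were named from the platform annotation, with 34958 of 45101 carrying a single symbol, 932 several and 9211 none. Promoter windows came from RefSeq (GRCm38.p6), and all 9 members were matched. Named are all members, and from the lists of other bipolar genes Grm6, Otx2, Grik1 and every gene with an unadjusted p under 0.05. The other mGluR6 cascade genes, Aqp4 and Opn1mw were named after their values were seen. A listed gene that the rule also names is not reported here. The members, the lists and the tests were chosen with earlier results of these data known. The fit was tested on simulated data. Alternatives covered the block, floor, filter, scaling, prior, the methods' paired t-test and leaving out eyes.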

Additional observations from a re-analysis of the deposited data

How the results depend on the processing

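The count of member probe sets that were nominally lower, 4 of 14 against 2.51% of all tested, depended on the fit. It was 2 without the replicate block, against 2% of all, and 1 in the methods' paired t-test, against 2.19%. With 1 pair or 1 eye left out it was 0 to 4, against 0.868% to 4.56%. It was 0 without crush eye 1, against 4.56%, and without control eye 2, against 0.889%, both in fits without pairing. Over all probe sets, 2546 were nominally significant in either direction, 1671 in the methods' t-test and 1005 to 3839 with a pair or an eye left out. With other floors, filters, scalings or priors the member count was 3 to 5, against 2.12% to 3.77% of all lower, with changes in its members. Where a mean of at least 100 was required, it was 3 of 11, against 2.12%. With an intensity floor of 64 both Cabp5 probe sets lost the call, the bright one at -0.66 and the dim one at -0.17, and Scgn gained it at -0.33. With no intensity filter the bright Cabp5 probe set lost it at -0.66 and Scgn gained it, and with a trended and robust prior the dim Cabp5 probe set lost it at -0.50 and Gng13 1447282_at gained it at -0.89. The count lower in every pair, 9 of 14 against 14.2% of all tested, was 8 or 9 of 14 under the other floors and scalings and with no filter. It was 7 of 11 where a mean of at least 100 was required. A floor of 1 and dropping the filter could not change it. The share of all probe sets was not taken in these settings.

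Of 249 values of single member probe sets under the alternatives, 224 had the same sign, and none of the other 25 had an unadjusted p under 0.05. In some of these alternatives the log2 difference could not change, so the agreement in sign was fixed in advance. These were the fit without the block, the floor of 1, the other filters and the trended and robust prior. A floor of 64 also left it unchanged for probe sets above 64 on every array. The sign turned for Prkca 1450945_at after quantile normalization, at -0.0423, and in the methods' t-test, at -0.0282, for Trpm1 1418935_at in that t-test, at 0.0350, and for Pcp2 1419084_a_at in that t-test, at 0.00525. With a pair or an eye left out, the log2 difference ranged from -0.120 to 0.0153 for Prkca 1437393_at, from -0.14 to 0.24 for Prkca 1450945_at, from -0.29 to 0.36 for Trpm1 1418935_at, from -0.187 to 0.0536 for Pcp2 1419085_at, from -0.27 to 0.14 for Pcp2 1419084_a_at and from -0.33 to 0.14 for Lhx4 1421483_at. The probe sets of Cabp5, Gng13, Scgn, Nyx, Vsx1 and Lhx4 1439905_at were negative under every alternative run, including those that could not change the sign. The causes were not tested.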
